A study of Mus musculus with 47 samples.

Results

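The respiratory chain of cultured mouse microglia was followed across 5 Apoe genotypes, with and without myelin. Its members were chosen by name from the protein-coding genes. They were every gene named Nduf (leaving out the Ndufaf assembly factors), Sdha to Sdhd, Uqcr, Cox4 to Cox8 or Atp5, and every protein-coding gene of the mitochondrial genome, whose names begin with mt-. The rule used no measured value. It took 99 of 53697 deposited genes, of which 21845 were protein-coding. Nuclear genes made up 86 of them (38 in complex I, 4 in complex II, 8 in complex III, 18 in complex IV and 18 in complex V), and mitochondrial genes 13. Of these, 80 nuclear and all 13 mitochondrial genes passed the filter on low values and were tested. The complex was assigned from the gene name alone, which puts every Nduf gene, Ndufa4 among them, in complex I.

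The respiratory chain sits in the inner mitochondrial membrane. Complexes I and II pass electrons from NADH and succinate to ubiquinone, complex III passes them on to cytochrome c, and complex IV, cytochrome c oxidase, passes them to oxygen. Complexes I, III and IV pump protons, and complex V, ATP synthase, uses the gradient to make ATP. All complexes but II are built from subunits encoded in both genomes, so the cell has to match the output of nuclear and mitochondrial genes. Several subunits of complex IV exist as isoforms that differ between tissues, with Cox6a2 and Cox7a1 known from heart and skeletal muscle and Cox6b2 from testis. Microglia, the resident macrophages of the brain, shift between oxidative phosphorylation and glycolysis when activated.

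The cells were primary forebrain microglia of C57BL/6 mice, grown in serum-containing medium. Wild-type (WT) cells and cells with 1 disrupted Apoe allele (Het, Apoe+/-) or none intact (KO, Apoe-/-) came from mice of The Jackson Laboratory, while E3 and E4 cells came from Taconic mice whose mouse Apoe alleles were replaced to encode human APOE ε3 or APOE ε4. The protein, apolipoprotein E, transports lipids such as cholesterol. Breeder and genotype therefore cannot be told apart between WT and E3 or E4. Some cultures of each genotype received myelin, the membrane that wraps axons, for 3 h, and all cultures were collected at 24 h. The untreated and myelin groups held 5 and 5 libraries of WT, 4 and 4 of E3, 5 and 5 of E4, 5 and 4 of Het, and 5 and 5 of KO. Whether replicates are separate animals is not in the labels. The p-values thus reflect only how far the 43 libraries kept for the tests spread, in part perhaps for technical reasons. TPM, an abundance corrected for transcript length, carry no information on sequencing depth, which is unknown here.

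Polyadenylated RNA was read after low-input amplification, and a non-coding RNA gene, Gm23935, took 69.4% to 99.0% of the TPM. Values are therefore given as scaled TPM, with the nuclear protein-coding genes of each library summing to 1000000. In 4 Het libraries, replicates 3 and 5 untreated and 1 and 2 after myelin, these genes held under 6% of the TPM. Those libraries were left out of the tests, which leaves Het with 3 untreated libraries and 2 after myelin. Mouse Apoe went with the labels: it stood at 46678 to 63640 scaled TPM in untreated WT, at 92.2 to 745.2 in E3 and E4 and at 66.1 to 86.4 in KO libraries. Microglial markers summed to 15618 to 17656 scaled TPM in untreated WT, 14918 to 17330 in E3, 18791 to 21835 in E4 and 21439 to 24109 in KO, and all 11 were detected.

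In untreated E3 and E4 microglia the nuclear-encoded subunits were higher as a body than in WT. The summed level of the nuclear members was 29605, 29686, 31318, 28275 and 29180 scaled TPM in the 5 untreated WT libraries. It was 43786, 42066, 38851 and 38658 in E3 and 47409, 40348, 39036, 36212 and 35883 in E4. Every E3 and E4 library lay above every WT library, while the 5 untreated KO libraries, at 26732 to 30927, and the 3 retained Het libraries, at 28470 to 31939, overlapped WT. The 13 mitochondrial genes together did not follow to the same extent. Their sum was 20379 ± 1918 (SD, n = 5) in untreated WT, 24772 ± 1157 (n = 4) in E3, 21019 ± 1551 (n = 5) in E4 and 17392 ± 2291 (n = 5) in KO.

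The ratio of the mitochondrial to the nuclear sum was 0.687 ± 0.0467 (SD, n = 5) in untreated WT. It was 0.609 ± 0.056 (n = 4) in E3 and 0.533 ± 0.0636 (n = 5) in E4, where the range of 0.435 to 0.587 lay wholly below the WT range of 0.639 to 0.751. The E3 range, 0.563 to 0.680, overlapped it. The 3 retained untreated Het libraries lay at 0.745, 0.914 and 1.15, the lowest of them inside the WT range. Untreated Het replicates 3 and 5, left out of the tests, were at 0.516 and 1.86. The KO libraries lay at 0.508 to 0.671. In a bulk sample, fewer cells of a type and less RNA per cell cannot be told apart.

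**Figure D1:**
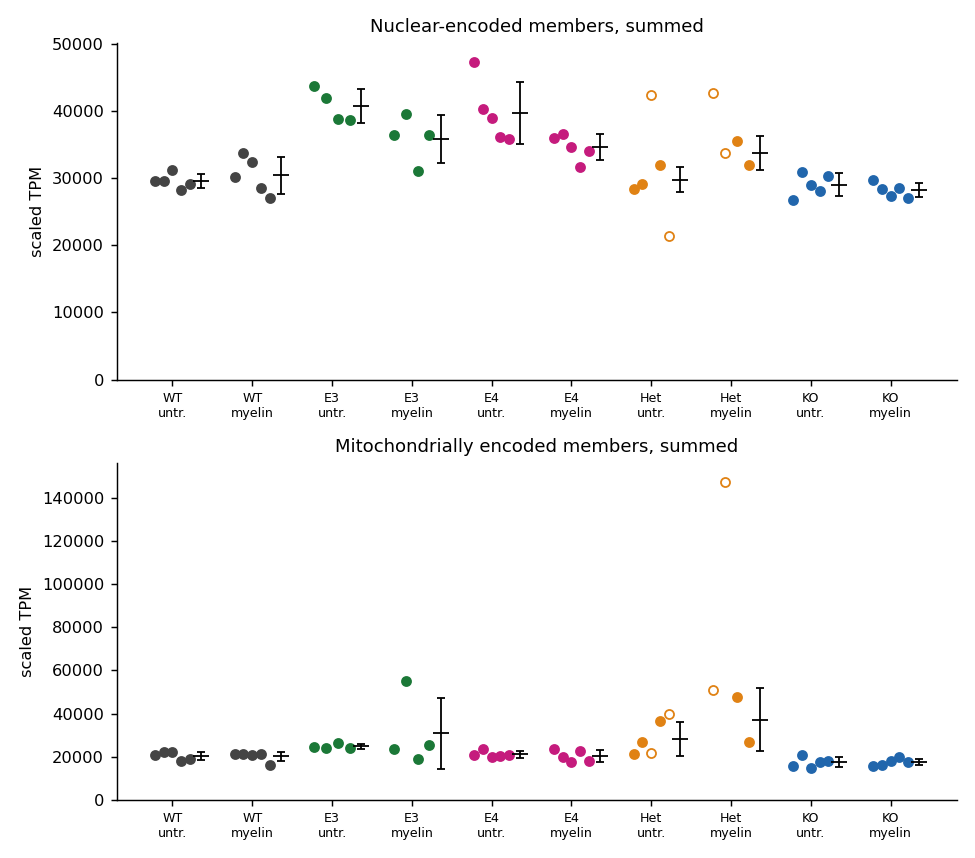
Summed level of the nuclear and of the mitochondrial members in each library, in scaled TPM, by genotype and treatment; points are libraries, bars are the mean ± SD of the retained libraries, and open points are the 4 low-content Het libraries. Untreated E3 and E4 libraries, at 35883 and above, lie over the highest untreated WT library at 31318 in the nuclear sum. In the mitochondrial sum, 1 E3 library after myelin stands at 54870, and a low-content Het library after myelin is highest at 147443.

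Of 80 tested nuclear members, 71 rose and 1 fell in untreated E3 against WT, with a median log2 difference of 0.46. Among all 10523 tested genes, 29% rose and 25.7% fell, and the median was 0.02. In untreated E4 against WT, 67 rose and 1 fell, with a median of 0.41, where 32.6% of all genes rose and 31.4% fell. All comparisons with untreated WT use the same 5 WT libraries, so their counts do not stand independently of each other. Differences compare log2(scaled TPM + 1), and calls are from limma with Benjamini-Hochberg adjustment at 0.05.

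Complex I, the entry point for electrons from NADH, showed the change most widely. Of the 37 tested nuclear genes assigned to it by name, 36 rose in E3 and 34 in E4, with medians of 0.47 and 0.42. The 1 subunit that fell in each was Ndufs1, the largest subunit of the complex and a carrier of iron-sulfur clusters, by 0.36 ± 0.14 (SE, adjusted p = 0.0259) in E3 and 0.41 ± 0.13 (adjusted p = 0.00582) in E4. Its levels were 58.2 to 68.9 scaled TPM in WT, 46.3 to 53.7 in E3 and 32.1 to 62.9 in E4, so that only the E4 range overlapped WT. With the log2 coding share, described further on, as a covariate, the Ndufs1 values turned to 0.08 and 0.14. Ndufa2, the nuclear complex I gene with the highest mean level, rose by 0.50 ± 0.14 (adjusted p = 0.00366) in E3 and 0.57 ± 0.14 (adjusted p = 0.000422) in E4, and with that covariate its values were 0.020 (adjusted p = 0.866) and -0.035 (adjusted p = 0.753). Ndufs4, a subunit needed late in the assembly of the complex, rose by 0.69 ± 0.11 in E3 and 0.50 ± 0.11 in E4.

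Complex II, succinate dehydrogenase, has only nuclear subunits. Of its 4 genes 1 rose in E3 and 2 in E4, and the median was 0.05 in each. The gene that rose in E3 was Sdhb, the iron-sulfur subunit, at 311.0, 332.3, 348.8, 342.3 and 329.0 scaled TPM in WT and 460.0, 456.1, 422.8 and 473.6 in E3. The groups did not overlap, and the difference was 0.44 ± 0.06 (adjusted p = 4.01e-08), with 0.39 ± 0.05 (adjusted p = 9.98e-08) in E4. Sdha, the flavoprotein that oxidises succinate, had values of -0.23 ± 0.13 (adjusted p = 0.136) in E3 and -0.24 ± 0.12 (adjusted p = 0.0816) in E4. The difference between complex II and the other complexes was not tested.

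In complex III, 7 of 8 subunits rose in E3 and 6 in E4. Uqcrfs1, the Rieske iron-sulfur protein that hands electrons to cytochrome c1, was at 120.1, 94.5, 84.9, 59.7 and 76.7 scaled TPM in untreated WT. It was at 167.6, 136.1, 158.3 and 156.7 in E3 and 137.0, 139.9, 146.5, 165.9 and 155.6 in E4. No E3 or E4 library reached down to the WT range, and the differences were 0.85 ± 0.12 (adjusted p = 1.81e-07) and 0.80 ± 0.11 (adjusted p = 9.86e-08). Uqcr11, a small subunit and the highest of complex III, rose by 0.63 ± 0.13 in E3 and 0.65 ± 0.12 in E4.

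In complex V, 14 of 17 tested subunits rose in E3 and 13 in E4. Atp5e, the epsilon subunit of the central stalk, was at 409.5, 425.4, 417.2, 375.3 and 448.2 scaled TPM in WT. It was at 772.9, 779.0, 703.7 and 594.1 in E3 and at 1032, 784.3, 712.6, 602.6 and 622.9 in E4. The groups did not overlap, with differences of 0.77 ± 0.12 (adjusted p = 2.13e-06) and 0.83 ± 0.11 (adjusted p = 9.57e-08). Atp5o, which joins the stator to the catalytic head and is also called OSCP, rose by 0.69 ± 0.07 in E3 (adjusted p = 7.89e-10) and 0.61 ± 0.07 in E4. Atp5b, the catalytic beta subunit, rose less, by 0.33 ± 0.07 and 0.20 ± 0.06.

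In complex IV, 13 of 14 tested nuclear subunits rose in E3 and 12 in E4. Cox4i1, the most abundant nuclear member of all, was at 1387 to 1517 scaled TPM in WT, 1840 to 2247 in E3 and 1813 to 2383 in E4, and rose by 0.48 ± 0.08 and 0.49 ± 0.08. The complex IV members with the largest differences were a pair of isoforms at low level. Cox6b2, the testis form of the subunit that bridges the oxidase dimer, was at 2.50, 2.50, 4.83, 1.32 and 3.03 scaled TPM in untreated WT. It was at 16.6, 16.0, 24.6 and 11.4 in E3 and at 26.6, 19.5, 16.9, 13.7 and 15.0 in E4. Every E3 and E4 library was above every WT library, and the log2 differences were 2.25 ± 0.32 (adjusted p = 3.79e-07) and 2.36 ± 0.30 (adjusted p = 2.23e-08). Het and KO libraries held at most 3.23. No untreated WT library and no Het or KO library reached the 5 scaled TPM of the filter on low values. Cox6b2 was thus tested through the groups where it was high, and its p-values do not stand apart from that. Cox7a1, the muscle form of a small subunit, was at 12.7, 8.50, 12.04, 8.99 and 11.8 in WT, and at 40.2, 29.2, 36.8 and 22.0 in E3. In E4 it was at 37.8, 35.4, 30.3, 37.2 and 34.6, again with no overlap, and the differences were 1.47 ± 0.19 (adjusted p = 7.26e-08) and 1.62 ± 0.18 (adjusted p = 9.79e-10).

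The ubiquitous forms of the same subunits rose by less. Cox6b1 rose by 0.42 ± 0.08 and Cox7a2 by 0.46 ± 0.10 in E3, and by 0.41 ± 0.08 and 0.33 ± 0.09 in E4. Cox6a2, the muscle form of another subunit, had a value of 0.09 in E3, while its ubiquitous counterpart Cox6a1 rose by 0.55 ± 0.12 in E3 and 0.57 ± 0.11 in E4. Cox7a1 lies at chr7:30184144-30186078 and Cox6b2 at chr7:4751792-4753094 of mm10, which is 10.5 and 14.9 Mb from the replaced Apoe locus. Cox6b1, at 10.9 Mb, and Ndufa3, at 16.1 Mb, are the other members within 20 Mb. Of 254 tested genes within 20 Mb of Apoe, 16.1% differed from WT by over 1 on the log2 scale in untreated E3 and 21.3% in E4, against 10.1% and 15.8% of the other 10252. In untreated KO and Het the shares within 20 Mb were 20.9% and 17.7%, against 17.3% of the other genes in each. The distance was looked up after the values had been seen, and its part in the result was not tested.

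**Figure D2:**
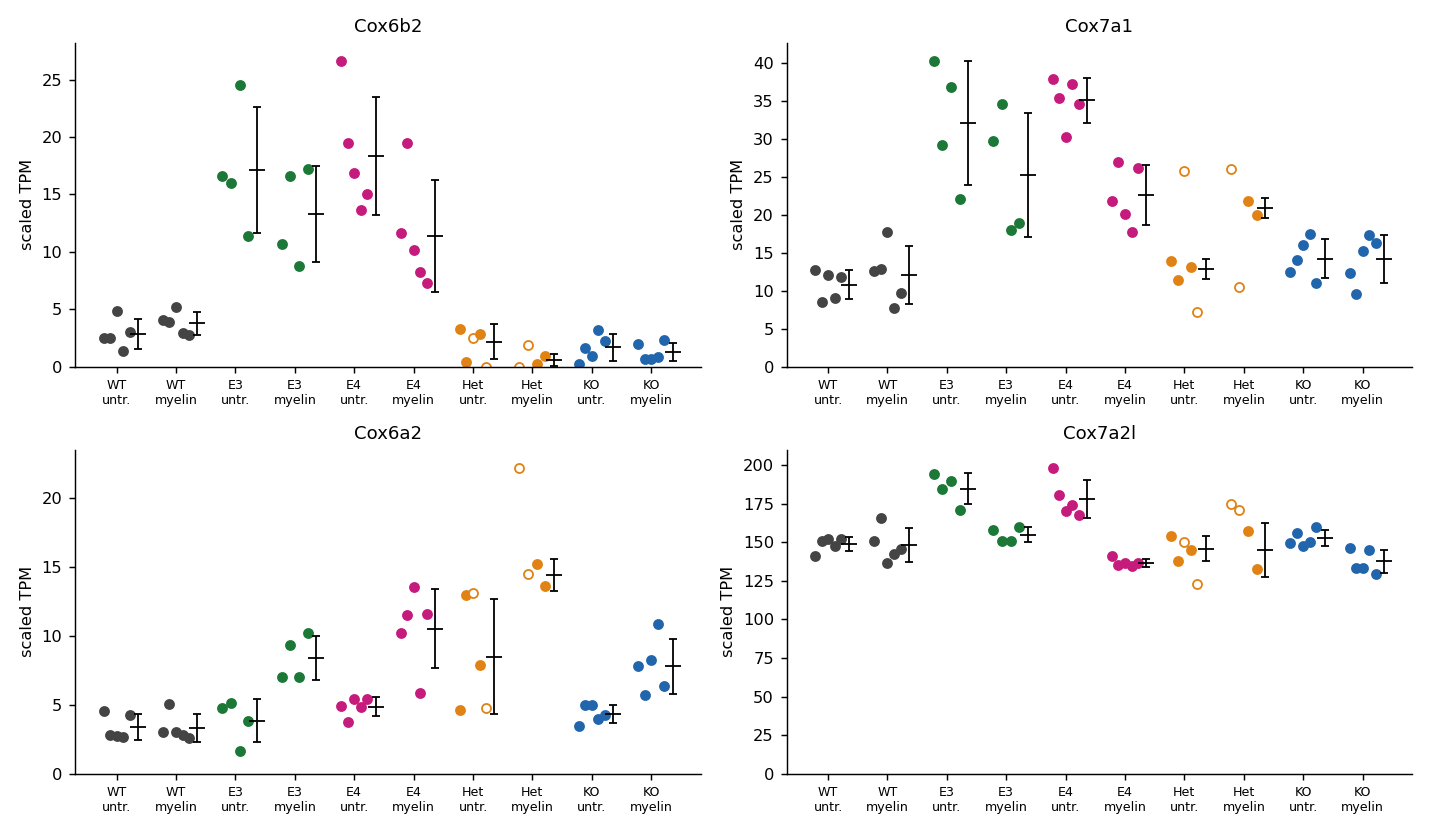
Levels of the complex IV genes Cox6b2, Cox7a1, Cox6a2 and Cox7a2l in each library, in scaled TPM, by genotype and treatment; points are libraries, bars are the mean ± SD of the retained libraries, and open points are the 4 low-content Het libraries. Cox6b2 and Cox7a1 are high in E3 and E4 with and without myelin, while Cox6a2 lies above its untreated range in the E3, E4 and KO myelin groups and is high in Het libraries.

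The promoters of Cox6b2 and Cox7a1 are shown beside those of Cox6a1 and Atp5k, in which both cores searched occur. They are shown because NRF1 and ETS-family factors such as GABP are known regulators of nuclear respiratory genes. RefSeq windows of GRCm38.p6, the same build as mm10, run from 250 bases before to 50 after a gene's start and were matched for 69 of 85 nuclear symbols, in 74 windows. The NRF1 core searched was GCGCA followed at once by its reverse complement, which reads the same on both strands, and the ETS core was CCGGAAG on either strand. The NRF1 core was in 5 of 74 windows (6.76%), against 1.33% of 21262 windows of all protein-coding genes. The ETS core was in 16 (21.6%), against 11.6%. In the windows of Cox6a1 (chr5:115348909-115349208, minus strand) and Atp5k (chr5:108434350-108434649, minus strand) both cores occur, set in capitals. In those of Cox6b2 (chr7:4753045-4753344, minus strand) and Cox7a1 (chr7:30183921-30184220, plus strand) these letters do not occur. Most windows of nuclear members likewise hold neither core, and those of the ubiquitous counterparts Cox6b1 and Cox7a2 are not shown. A match describes the letters and is not a measured binding site.
Cox6b2: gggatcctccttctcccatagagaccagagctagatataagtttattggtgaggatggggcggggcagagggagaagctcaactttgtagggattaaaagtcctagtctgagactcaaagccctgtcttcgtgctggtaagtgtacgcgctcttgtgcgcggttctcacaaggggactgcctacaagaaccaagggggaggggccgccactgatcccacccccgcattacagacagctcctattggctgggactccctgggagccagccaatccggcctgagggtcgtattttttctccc
Cox7a1: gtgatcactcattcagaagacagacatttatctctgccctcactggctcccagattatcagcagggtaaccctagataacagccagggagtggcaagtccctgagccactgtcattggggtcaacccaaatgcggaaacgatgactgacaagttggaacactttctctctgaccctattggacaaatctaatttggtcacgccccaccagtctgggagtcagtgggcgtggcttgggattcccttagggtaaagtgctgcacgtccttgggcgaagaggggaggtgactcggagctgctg
Cox6a1: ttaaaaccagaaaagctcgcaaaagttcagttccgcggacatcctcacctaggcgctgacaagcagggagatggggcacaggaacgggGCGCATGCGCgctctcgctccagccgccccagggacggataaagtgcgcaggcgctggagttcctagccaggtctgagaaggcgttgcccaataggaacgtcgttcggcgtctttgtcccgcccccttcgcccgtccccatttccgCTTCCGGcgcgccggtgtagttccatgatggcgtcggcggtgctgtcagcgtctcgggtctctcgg
Atp5k: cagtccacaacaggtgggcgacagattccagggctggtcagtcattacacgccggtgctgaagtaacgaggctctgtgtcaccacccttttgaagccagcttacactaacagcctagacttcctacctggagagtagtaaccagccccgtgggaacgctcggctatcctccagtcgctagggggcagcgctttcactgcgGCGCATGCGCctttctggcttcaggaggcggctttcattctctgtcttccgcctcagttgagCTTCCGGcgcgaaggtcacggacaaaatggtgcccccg

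Other measures moved with the E3 and E4 groups. Nuclear protein-coding genes held 20.5% to 27.3% of the TPM in untreated WT, 11.1% to 16.6% in E3 and 7.16% to 16.1% in E4, with no overlap. The WT myelin libraries reached lower shares, and the pair at 13.0% and 16.8% held nuclear sums of 32481 and 30258 scaled TPM. Low-share Het libraries reached the E3 and E4 range, at 42442 (5.66%) and 42806 (4.12%) in a pair left out of the tests and 35548 (8.04%) in a retained library after myelin, while the Het libraries at 2.91% and 0.468% held 33835 and 21360. With the log2 share as a covariate, 54 nuclear members rose in E3 against untreated WT with a median of 0.28, and 34 in E4 with a median of 0.18. Under this covariate Cox6a1, Sco1 and Gabpa lost their calls in both E3 and E4, and Uqcr11, Cox6b1, Cox7a2 and Coa5 in E4. Short transcripts as a class were also higher: the 2135 tested genes under 1000 nt that are no members had medians of 0.16 in E3 and 0.11 in E4, against 0.47 and 0.43 in nuclear members of that length. Length is the median over a gene's annotated protein-coding transcripts, by which Ndufs1, named above as the largest complex I subunit, counts as 651 nt. With the length trend of each library removed, 64 and 63 members rose.

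Markers of other cell types moved too. Summed astrocyte markers were at 130 to 157.4 scaled TPM in untreated WT, 972.1 to 1216 in E3 and 1849 to 3402 in E4, and 7 of 8 rose in each, with Gfap, the astrocyte filament protein, at a median of 37.5 in WT, 413.6 in E3 and 1081 in E4. Summed neuronal markers were at 14.0 to 20.3 in WT, 61.1 to 73.4 in E3 and 66.8 to 83.3 in E4, and the 3 of 6 that could be tested rose in both. Summed oligodendrocyte markers were at 63.3 to 77.0 in WT, 88.8 to 101.8 in E3 and 134.3 to 202.6 in E4. Summed fibroblast and pericyte markers were at 696 to 1110 in WT, 371.1 to 538.2 in E3 and 114.2 to 197.7 in E4, and 2 and 5 of the 5 tested fell. Proliferation markers were at 165 to 215.5, 156.3 to 194 and 98.1 to 111.8. No marker stood at 0 in every retained library of a group. The part of these cell types, of the coding share and of transcript length in the respiratory genes was not tested beyond these values.

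**Figure D3:**
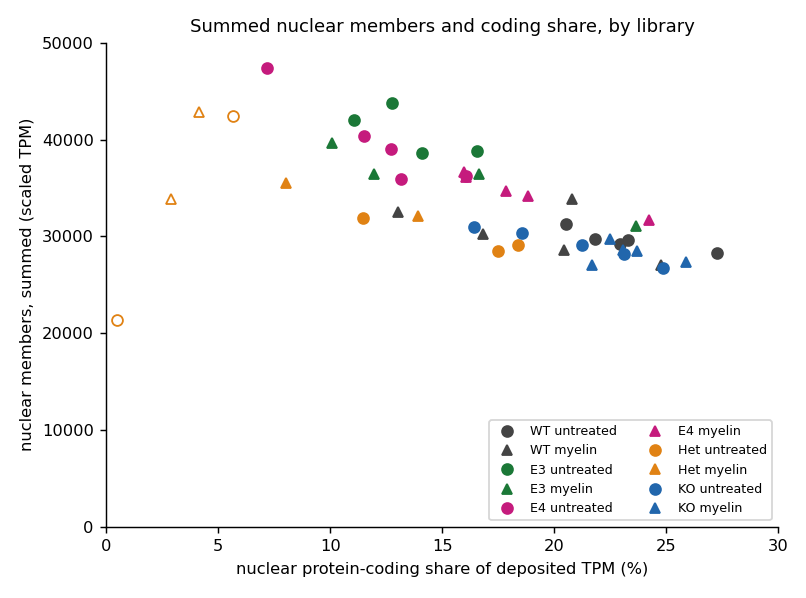
Summed nuclear members in scaled TPM against the share of TPM in nuclear protein-coding genes, in percent, for each library; circles are untreated and triangles myelin libraries, coloured by genotype, and open symbols are the 4 low-content Het libraries. Untreated E3 and E4 libraries, at 35883 to 47409, lie above WT myelin libraries of similar share, while 3 Het libraries of 4.12% to 8.04% share lie at 35548 to 42806.

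Other genes that serve the chain were read from lists. Against untreated WT, 29% of all genes rose and 25.7% fell in E3, and 32.6% rose and 31.4% fell in E4. Of 52 assembly factors, 29 rose and 3 fell in E3 against untreated WT, and 28 rose and 8 fell in E4. Sdhaf1, which assembles complex II, rose by 1.26 and 1.78, while Coa5 and Sco1, which serve the assembly of complex IV, fell by 0.84 and 0.43 in E3 and by 0.82 and 0.55 in E4. Of 78 mitochondrial ribosomal proteins, 52 rose and 2 fell in E3 with a median of 0.32, and 37 rose and 9 fell in E4 with a median of 0.15. Mrps24 rose by 1.76 and 2.12. Of 33 genes of mitochondrial DNA and RNA handling, 5 rose and 6 fell in E3, and 5 rose and 8 fell in E4. Each of these shares was below that of all genes.

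Of 15 regulators of respiratory genes, 3 rose and 9 fell in each of E3 and E4 against untreated WT. Over all genes, 29% and 32.6% rose in E3 and E4, and 25.7% and 31.4% fell. Ppargc1a, the coactivator PGC-1α, rose by 1.61 ± 0.14 and 1.79 ± 0.14, and Esrra, a nuclear receptor it works with, by 0.47 ± 0.18 and 0.99 ± 0.17. Gabpa, the DNA-binding subunit of GABP, fell by 0.98 ± 0.21 and 0.99 ± 0.20. Of 47 other mitochondrial proteins, 18 rose and 6 fell in E3, and 14 rose and 18 fell in E4. The E4 count is near the background, where 32.6% of all genes rose and 31.4% fell. Among these Lonp1, a matrix protease, rose by 1.13 and 1.56, as did Tomm40, an import pore whose gene neighbours Apoe, by 1.37 and 1.77. Sod2, the mitochondrial superoxide dismutase, fell by 0.70 in E3, and the chaperones Hspd1 and Hspa9 fell by 0.82 and 0.81 in E4.

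**Figure D4:**
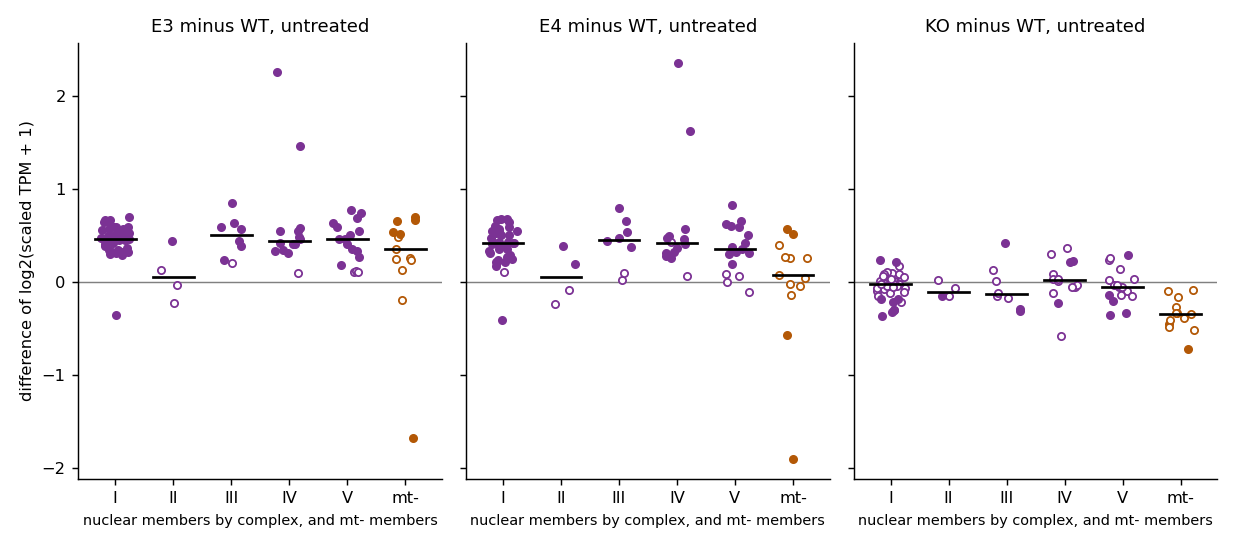
Log2 differences from untreated WT of each tested member in untreated E3, E4 and KO, by complex and by genome; filled points passed the test, open points did not, and black bars are medians. The nuclear subunits of complexes I, III, IV and V lie mostly above 0 in E3 and E4, with mt-Nd3 as the lowest point at -1.68 in E3 and -1.90 in E4.

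After myelin the difference from WT was smaller in count. Of 80 nuclear members, 39 rose and none fell in E3 against WT after myelin, with a median of 0.23, where 20.9% of all genes rose and 11.6% fell. In E4 against WT after myelin, 40 rose and none fell, with a median of 0.19, where 29.7% rose and 21.5% fell. Complex I again held most of them, with 23 of 37 in each. These counts depend on the scaling, with 13 nuclear members rising in E3 and 25 in E4 under TMM factors. Over both genomes 48 members were called in E3, where 32.5% of all genes were, and 28 without E3 myelin replicate 2. Cox6b2 and Cox7a1 rose by 1.56 ± 0.32 (adjusted p = 0.000208) and 1.002 ± 0.19 (adjusted p = 8.23e-05) in E3, and by 1.32 ± 0.30 (adjusted p = 0.000386) and 0.88 ± 0.18 (adjusted p = 0.0001) in E4. Summed astrocyte markers were again high, at 869.6 to 1054 scaled TPM in E3 and 1361 to 2989 in E4 against 119.1 to 143.3 in WT.

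Among the mitochondrial genes, 5 of 13 rose and 1 fell in untreated E3 against WT, where 29% of all genes rose and 25.7% fell. The 5 were mt-Nd4, mt-Nd4l, mt-Nd5 and mt-Nd6 of complex I and mt-Co2 of complex IV, by 0.65, 0.67, 0.53, 0.70 and 0.52. mt-Co2 was at 2685, 2996, 3002, 2559 and 2609 scaled TPM in WT and 3951, 4019, 4164 and 3707 in E3, with no overlap. With the log2 coding share as a covariate none of the 5 rose, and the median of the 13 was -0.08. In untreated E4, mt-Nd4l and mt-Nd6 rose by 0.52 and 0.57, and mt-Atp8 fell by 0.57 ± 0.24 (adjusted p = 0.0342). Over all genes, 32.6% rose and 31.4% fell in untreated E4 against WT. With TMM factors neither rise was called, and 2 genes fell. With the coding share as a covariate mt-Nd4l and mt-Nd6 turned to -0.33 (adjusted p = 0.0833) and -0.35 (adjusted p = 0.136). mt-Nd6 lies on the strand opposite to the other 12, and without strand its reads cannot be told apart from those of RNA transcribed across it; whether the counting used strand is not given in the sources used here.

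The mt-Atp8 and mt-Atp6 genes overlap, so some reads cannot be assigned to either of them. The shared stretch is the last 43 bases of mt-Atp8 (chrM:7766-7969, plus strand) and the first of mt-Atp6 (chrM:7927-8607), and it is shown because it is a sizeable part of the short mt-Atp8.
mt-Atp8 and mt-Atp6: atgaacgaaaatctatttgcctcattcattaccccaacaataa

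The mitochondrial gene that fell in both E3 and E4 was mt-Nd3, a core subunit of complex I. It was at 448.3, 448.7, 515.6, 327.2 and 357.8 scaled TPM in untreated WT, 147.7, 126.1, 117.5 and 123.9 in E3 and 180.2, 79.2, 102.6, 83.9 and 130.2 in E4. The groups did not overlap, and mt-Nd3 fell by 1.68 ± 0.28 (adjusted p = 4.7e-06) in E3 and by 1.90 ± 0.26 (adjusted p = 8.12e-08) in E4. A nuclear copy, Gm28438 (chr1:24612775-24613119, minus strand, 345 nt), matches mt-Nd3 (chrM:9459-9806, plus strand, 348 nt) along its length except for T3C, counted from the first base of mt-Nd3, which is position 9461 of chrM. The first 60 bases of both are shown, with the differing base in capitals, because both entries match at every other aligned base.
mt-Nd3: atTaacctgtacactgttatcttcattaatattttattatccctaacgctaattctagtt
Gm28438: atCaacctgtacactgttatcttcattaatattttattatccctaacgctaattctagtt

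Gm28438 was listed at 0 to 2.25 scaled TPM in every WT, Het and KO library. It was at 516.3, 562.6, 623.8 and 566.6 in untreated E3 and 613.1, 583.9, 535.4, 492.3 and 548.3 in untreated E4. With the copy added to mt-Nd3 by length, the levels were 450.6, 448.7, 517.5, 327.2 and 357.8 in WT, 659.6, 683.9, 735.9 and 685.6 in E3 and 788.0, 658.1, 633.4, 572.0 and 673.7 in E4. The sum was higher in every E3 and E4 library than in every untreated WT library, and the differences turned to 0.73 ± 0.25 (adjusted p = 0.0126) and 0.67 ± 0.24 (adjusted p = 0.0128). The direction for mt-Nd3 thus turned with whether the entry of the copy was counted with it. Base 9461 is known to differ between the C57BL/6J and C57BL/6N mitochondrial genomes, and whether that applies to these mice was not tested.

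**Figure D5:**
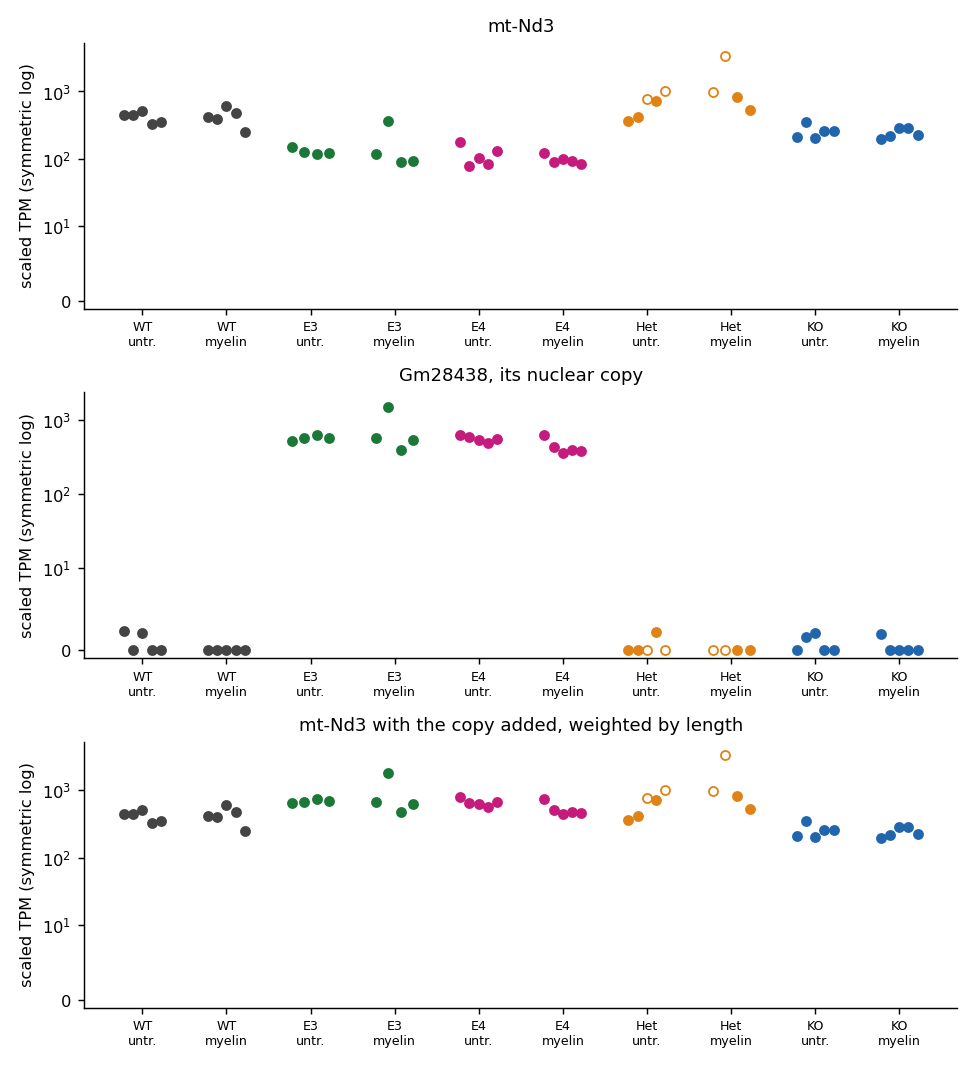
mt-Nd3, its nuclear copy Gm28438 and their length-weighted sum in each library, in scaled TPM on a symmetric log axis that is linear below 10, by genotype and treatment. Gm28438 is at 0 to 2.25 in WT, Het and KO libraries and at 353.3 or above in all E3 and E4 libraries.

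In KO libraries, where Gm28438 was near 0, mt-Nd3 fell by 0.72 ± 0.26 (adjusted p = 0.0182) untreated and by 0.79 (adjusted p = 0.0102) after myelin, and the values with the copy added were -0.72 and -0.79. After myelin, 8 mitochondrial genes rose in E3 against WT, with a median of 0.51 over the 13, and 3 rose with TMM factors. Over all genes, 20.9% rose and 11.6% fell. In the same comparison mt-Nd3 was called as lower, and with the copy added its value was 0.91. The calls of all 8 that rose were lost without E3 myelin replicate 2, whose mitochondrial sum of 54870 scaled TPM compares with 23525, 19105 and 25617 in the other 3 libraries. Without it mt-Co2 had a value of 0.31 (adjusted p = 0.108) and mt-Nd6 of 0.37. In E4 against WT after myelin, mt-Nd3 alone was called among the 13, as lower, and with the copy added its value was 0.33 (adjusted p = 0.241). In that comparison 29.7% of all genes rose and 21.5% fell.

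Myelin moved at most 1 respiratory gene within WT, Het or KO. In E3 and E4, a larger share of nuclear members than of all genes fell, in counts that depended on scaling and on single libraries. In WT, 1 of 80 nuclear members rose and none fell, where 4.53% of all genes rose and 0.437% fell. The member was Uqcrfs1, at 119.5, 82.2, 111.1, 137.0 and 124.2 scaled TPM after myelin against 59.7 to 120.1 before. The ranges overlapped, and the difference of 0.41 ± 0.11 (adjusted p = 0.0213) was lost without any of 5 WT libraries in turn, untreated 4 or 5 or myelin 1, 4 or 5.

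In E3, 1 nuclear member rose and 10 fell after myelin, with a median of -0.20, where 2.96% of all genes rose and 2.58% fell. With TMM factors 1 rose and 2 fell. In E4, 1 rose and 13 fell, with a median of -0.18, where 6.75% rose and 6.05% fell. In E3 Atp5o fell by 0.35 ± 0.08 (adjusted p = 0.00829), Cox7b by 0.32 and Ndufb11 by 0.30. In E4 Cox7a1 fell by 0.63 ± 0.18 (adjusted p = 0.0195), Atp5k, a small membrane subunit of ATP synthase, by 0.49 ± 0.13 (adjusted p = 0.00943), Cox6c by 0.41 and Uqcrh by 0.39 ± 0.09 (adjusted p = 0.00406). The coding share also moved with myelin in E4, from 7.16% to 16.1% untreated to 16.0% to 24.3%. With that share as a covariate 2 members were called in E4 and 24 in E3. The counts also rest on single libraries. Against 11 calls in E3, where 5.55% of all genes were called, there were 2, 4, 5 and 1 without untreated replicates 1, 2 and 4 and myelin replicate 3. Against 14 in E4, where 12.8% of all genes were called, there were 4, 9, 30 and 26 without untreated replicates 1, 2, 4 and 5 and 9 and 6 without myelin replicates 3 and 4.

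The exception to the downward calls was Cox6a2, a muscle isoform of complex IV. It was at 4.78, 5.11, 1.65 and 3.83 scaled TPM in untreated E3 and 7.01, 9.35, 7.001 and 10.2 after myelin. In E4 it was at 4.91, 3.72, 5.40, 4.83 and 5.40 untreated and 10.2, 11.5, 13.5, 5.85 and 11.6 after myelin. Neither pair of groups overlapped, and Cox6a2 rose by 1.01 ± 0.24 (adjusted p = 0.0113) in E3 and by 0.94 ± 0.21 (adjusted p = 0.00301) in E4. The E3 call was lost without untreated E3 replicate 3. In WT the response was -0.03 ± 0.21 (adjusted p = 0.951), and in KO, where levels went from 3.49 to 5.01 untreated to 5.67 to 10.8, it was 0.70 ± 0.21 (adjusted p = 0.0837). The difference between the E4 and WT responses, 0.97 ± 0.30, missed the threshold (adjusted p = 0.0566), as did that between E3 and WT, 1.04 ± 0.32 (adjusted p = 0.0759).

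The responses of 3 members differed from that of WT by the interaction test. Cox7a2l, which helps to join complexes III and IV into supercomplexes, was at 198.0, 180.4, 170.4, 173.8 and 167.7 scaled TPM in untreated E4 and at 141.3, 135.4, 136.3, 134.4 and 136.4 after myelin. The E4 groups did not overlap and Cox7a2l fell by 0.38 ± 0.05 (adjusted p = 8.34e-06), while WT went from 141.3 to 152.2 untreated to 136.2 to 165.6. The E4 response was lower than the WT response by -0.37 ± 0.08 (adjusted p = 0.00661), where 1.92% of all genes had a higher and 1.59% a lower response.

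For Atp5k the E4 response was lower than that of WT by -0.62 ± 0.18 (adjusted p = 0.0482), and for Atp5o the E3 response by -0.42 ± 0.10 (adjusted p = 0.0342), where 0.969% of all genes had a higher and 0.513% a lower response. Atp5o was at 571.3, 539.6, 501.9 and 490.0 scaled TPM in untreated E3 and at 407.9, 429.8, 363.2 and 455.8 after myelin, against 312.4 to 344.3 and 308.7 to 374.6 in WT. Its E3 groups did not overlap, while its WT groups did. The Atp5k call was lost without any of 13 libraries in turn and the Atp5o call without any of 8. The Cox7a2l call held without each library, but with the log2 coding share as a covariate its value was -0.30 (adjusted p = 0.0814). With TMM factors 1 member was called in each direction for E4 against WT and 0 for E3. No member differed in response between E4 and E3, nor any of 10523 genes, with limma (unadjusted p under 0.05 in 4 nuclear members), or between KO and WT, where 1.39% of all genes did (6 nuclear members unadjusted).

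In Het and KO, limma called 0 members for myelin, where 0.2% and 2% of all genes were called. Unadjusted p was under 0.05 for 13 and 7 nuclear members, with the Het response resting on 3 and 2 libraries. Of the 13 mitochondrial genes, limma called 0 in any myelin response or interaction, and 1 had an unadjusted p under 0.05, in E4.

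Few respiratory genes were called between E4 and E3. In untreated cells, no nuclear member rose and 5 fell in E4 against E3, where 8.02% of all genes rose and 8.82% fell. They were Cox7b by 0.27 (adjusted p = 0.0414), Atp5f1 by 0.23 (adjusted p = 0.0163), Uqcrb by 0.21, Ndufb6 by 0.21 and Atp5c1, the gamma subunit that rotates within ATP synthase, by 0.19 (adjusted p = 0.00513). These 5 calls, where 16.8% of all genes were called in either direction, became 1 and 2 without untreated E3 replicates 1 and 4, and 3 without untreated E4 replicate 2, 3 or 5. After myelin Cox7a2l fell by 0.18 (adjusted p = 0.0416), with mt-Atp8, mt-Cytb and mt-Co1 by 0.77, 0.55 and 0.53, where 6.33% of all genes rose and 5.23% fell. Over both genomes 4 members were called, where 11.6% of all genes were. The 4 became 0 without E4 myelin replicate 2, 3 or 5, and 1 and 10 with replicates 4 and 3 of E3 myelin left out. They also became 0 without E3 myelin replicate 2, where the 3 mitochondrial values became -0.38, -0.24 and -0.22 (adjusted p = 0.386, 0.405 and 0.444). With the coding share as a covariate 5 members rose and 1 fell, and the 3 mitochondrial calls were lost. Summed astrocyte markers were higher in untreated E4 than in E3, with 6 of 8 called.

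Loss of Apoe went with smaller differences, more often downward. In untreated KO against WT, 6 nuclear members rose and 15 fell with a median of -0.04, where 26.5% of all genes rose and 29.9% fell. With TMM factors 1 rose and 12 fell. After myelin, 2 rose and 17 fell with a median of -0.09, where 29.3% rose and 25.4% fell. Both shares of members called were below those of all genes. Atp5b was at 791.5, 821.3, 776.6, 793.7 and 779.0 scaled TPM in untreated KO against 1032, 962.5, 929.2, 1084 and 992.1 in WT. The groups did not overlap, and Atp5b fell by 0.33 ± 0.06 (adjusted p = 2.03e-05), and by 0.30 ± 0.06 (adjusted p = 9.53e-05) after myelin. Atp5g3, one of the genes for the membrane ring of ATP synthase, fell by 0.36 ± 0.07 (adjusted p = 1.89e-05), and Ndufab1, an acyl carrier protein that is also a complex I subunit, by 0.37 ± 0.09 (adjusted p = 0.000931).

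Uqcrfs1 rose in untreated KO, from 59.7 to 120.1 in WT to 110.2 to 118.6, by 0.42 ± 0.11 (adjusted p = 0.00148), with overlap through 1 WT library at 120.1. After myelin Cox6b2 fell by 1.10 ± 0.30 (adjusted p = 0.0023) and Cox6a2 rose by 1.02 ± 0.21 (adjusted p = 9.29e-05) in KO against WT. Of the mitochondrial genes, mt-Nd3 and mt-Nd1 fell in untreated KO, and mt-Nd3, mt-Nd2 and mt-Nd4l after myelin, with medians of -0.34 and -0.35 over the 13. In the same comparisons 29.9% and 25.4% of all genes fell. Among 21 alternatives, each library left out in turn among them, untreated mt-Nd3 and mt-Nd1 lost their calls in 3 and 11. After myelin mt-Nd2 and mt-Nd4l lost theirs in 2 and 13, and mt-Nd3 in none. Of 47 other mitochondrial proteins, 6 rose and 29 fell in untreated KO, and of 78 mitochondrial ribosomal proteins 7 rose and 28 fell. Over all genes, 26.5% rose and 29.9% fell. Fibroblast and pericyte markers summed to 31.3 to 629.5 scaled TPM in untreated KO, proliferation markers to 58.1 to 84.4, astrocyte markers to 80.7 to 116.3 and neuronal markers to 5.86 to 10.2, all below untreated WT. Oligodendrocyte markers, at 82.9 to 94.1, lay above it. The part of these markers in the result was not tested.

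In untreated Het against WT, with 3 Het libraries, 5 nuclear members rose and 16 fell, where 19.3% of all genes rose and 39.4% fell. The median of the members was 0.01 and that of all genes -0.18. With TMM factors the all-gene median moved to -0.04 and 14 members rose and 5 fell, so the direction of the count depends on the scaling. It was 17 and 6 with the length trend of each library removed, and 3 and 29 with the coding share as a covariate. Atp5b fell by 0.63 ± 0.07 (adjusted p = 2.53e-09), from 929.2 to 1084 in WT to 680.4, 663.8 and 599.0 in Het, with no overlap. Ndufs1 fell by 0.62 and Sdha by 0.54 ± 0.14 (adjusted p = 0.00118), while Cox4i1 rose by 0.34 ± 0.09. Cox6a2 was at 4.64, 12.9 and 7.87 scaled TPM in these libraries against 2.63 to 4.55 in WT, and rose by 1.04 ± 0.25 (adjusted p = 0.000471). Of the mitochondrial genes 6 rose, led by mt-Nd6 and mt-Nd4 by 0.79 and 0.61, and with the coding share as a covariate none did. That share was 11.5% to 18.4% in these Het libraries. Summed markers lay below untreated WT with no overlap for fibroblasts and pericytes, at 23.5 to 76.1 scaled TPM, proliferation, at 40.3 to 63.2, astrocytes, at 30.7 to 64.6, and neurons, at 3.97 to 7.99. Their part in the result was not tested.

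Some members share sequence with other genes, which makes their levels uncertain. In 22 of the 99 a transcript of another gene aligned over 200 nt or more at 98% identity or more, and in 3 that copy held at least 10% of the member's level by the median over all 47 libraries. mt-Nd3 is not among the 3 by that median, although its copy exceeded it in every untreated E3 and E4 library. mt-Co1, the core of cytochrome c oxidase, is matched over part of its length by Gm29216, whose level was at a median 325% of that of mt-Co1 and which differs from it by A1066T, counted from the first base of mt-Co1. The stretch around that base is shown, with the base in capitals, because reads there can go to either entry.
mt-Co1: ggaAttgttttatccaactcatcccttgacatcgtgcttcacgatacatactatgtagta
Gm29216: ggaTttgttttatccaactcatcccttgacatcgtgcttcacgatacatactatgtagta

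Mitochondrial mt-Atp6 is matched over 678 bases by Gm10925, at 92% of its level, and nuclear Ndufb4 over 390 by Ndufb4c, at 304%. With 8 copies added to their members, Gm28438 to mt-Nd3 among them, 7 mitochondrial genes rose and none fell in untreated E3 against WT. The 6 members under the filter on low values were Cox7b2, Cox4i2, Cox8b, Cox8c, Ndufa4l2 and a second Atp5o identifier. Their highest levels in any of the 47 libraries were 6.59, 5.33, 2.11, 1.56, 1.34 and 0.467 scaled TPM. These are mostly tissue isoforms, and their presence in microglia cannot be read at an unknown depth. Tested nuclear members ranged from a mean of 6.37 scaled TPM for Cox6a2 to 1772 for Cox4i1.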

How the data were processed

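Per the labels' protocols, polyadenylated RNA was amplified with a low-input kit and sequenced. The authors deposited gene values in TPM, and each column summed to 1000000. The submitters' processing notes name Salmon 0.13.1, limma 3.40.6 and mm10 without saying what each was used for. Options and annotation release: not given in the sources used here. TPM hold no depth, so no counting interval is given.

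Columns were matched to samples by name. The values were divided by the total of the protein-coding genes without mt- genes and multiplied by 1000000. The 4 Het libraries with that total under 6% of the TPM were left out, which leaves 43. A gene was tested if it was protein-coding and reached 5 scaled TPM in 4 or more libraries, which held for 10523. Values of log2(scaled TPM + 1), computed from the deposited TPM, were fitted with limma 3.58.1 (R 4.3.3, with the package data.table at version 1.17.8), with a mean per group, no library weights and a trend. The pseudocount understates changes of low genes. The 18 comparisons were two-sided with Benjamini-Hochberg adjustment over all tested genes and a threshold of 0.05. The design written first assumed gene counts, and limma on the log2 scale took the place of a count model. The code was tested on simulated data. Replicates of a group correlated at 0.815 to 0.990, and no pair was 1 library deposited under different names.

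Genes named are all mt- members, the highest nuclear member of each complex, the isoform pairs, up to 6 called members per direction and comparison, and up to 2 called genes per direction in each list. Distances from Apoe, the coding share and transcript length were looked at after the values were seen. The members and lists were chosen with earlier results of these data known. Identifiers were matched to the mm10 annotation without version for 53668 genes. Alternatives were other scalings, pseudocounts, filters, library sets and weights, a replicate block and leaving out each library. A covariate for coding share, removal of each library's length trend, and adding near-identical copies to their members were chosen after seeing the data.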

Additional observations from a re-analysis of the deposited data

Results flagged for a closer look

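Among 120 checks of 12 quantities in 10 groups, 13 found a library far from the others of its group. Chance alone gives about 1 in 20. E3 myelin replicate 2 accounts for 4 of them: its ratio of mitochondrial to nuclear members was 1.38 against 0.703 in the next library, mt-Nd3 was at 362.2 scaled TPM against 118.1, mt-Nd3 with its copy at 1824 against 682, and mt-Co3 at 13540 against 6498. Het myelin replicate 2, which was left out of the tests, had a ratio of 4.36 against 1.34, and mt-Nd3 at 3305 against 984.1 both with and without the copy. E4 untreated replicate 2 was highest in the mitochondrial sum at 23704 against 20764, and in mt-Co3 at 6311 against 5209. WT myelin replicate 5 was lowest in the mitochondrial sum, at 16136 with the next at 20704. E4 myelin replicate 1 held 745.3 of mt-Nd3 with its copy against 518.8, and Cox7a2l at 141.3 against 136.4. WT myelin replicate 2 held Cox6a2 at 5.08 against 3.05.

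By the interaction test of limma, 3 responses to myelin differed from that of WT, Atp5o in E3 by -0.42 (adjusted p = 0.0342), and Cox7a2l and Atp5k in E4 by -0.37 (adjusted p = 0.00661) and -0.62 (adjusted p = 0.0482).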

How the results depend on the processing

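With 78 of 93 members called in untreated E3 against WT, no alternative moved the count by over 1.5 times. The 27 called in untreated Het stayed within 1.5 times in number but not in direction, with 11 higher and 16 lower as reported, 22 and 5 with TMM scaling, 25 and 6 with the length trend removed and 3 and 29 with the coding share as a covariate. Cox6b2 and Cox7a1 kept their direction and call in untreated E3 and E4 under every alternative run, with adjusted p from limma of 0.000162 at most. Cox6b2 passed the filter on low values through the groups where it was high, so its p-values do not stand apart from that. The other counts moved, and the cause was not tested. Depth limits the low isoforms, and its size is unknown. With TMM scaling, against 48, 41 and 23 members called in E3 after myelin, E4 after myelin and untreated KO against WT, there were 17, 26 and 14. It gave 3 and 8 in the myelin responses of E3 and E4 (11 and 14 as reported), 2 and 2 in E4 against E3 untreated and after myelin (5 and 4 as reported), and 0 in the interaction of E3 with WT (1 as reported). Without the filter on low values there were 4 in the E3 response, 3 and 1 in E4 against E3, and 0 and 1 in the interactions of E3 and E4 with WT (1 and 2 as reported). A pseudocount of 5 gave 4 in the latter.

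With all 47 libraries and no weights, 0, 0, 2 and 5 were called in the myelin responses of WT, E3, E4 and Het (1, 11, 14 and 0 as reported), 0 and 0 in E4 against E3, 9 and 18 in E3 and E4 after myelin against WT, 2 and 8 in KO against WT (23 and 22 as reported), and 0 in both interactions with WT. With weights per library there were 2, 21, 27, 29 and 1 in the responses of WT, E3, E4, Het and KO, 10 and 13 in E4 against E3, 36 in untreated KO against WT, and 10 and 4 in the interactions. With only the groups compared in the fit there were 0, 2 and 1 in the responses of WT, E3 and KO, 2 and 0 in E4 against E3, 17 in E3 after myelin and 36 in untreated KO against WT, and 0 and 1 in the interactions.

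With the log2 coding share as a covariate there were 24, 2 and 1 in the responses of E3, E4 and KO, 16 in untreated E4 against E3, 5 higher and 1 lower in E4 against E3 after myelin (0 and 4 as reported), 38 in untreated E4 (72 as reported) and 35 in untreated KO against WT, and 0 in the interaction of E4 with WT. Under it mt-Nd6, mt-Nd4l and Ndufs1 turned to -0.031, -0.0076 and 0.080 in untreated E3, and Ndufs1, mt-Nd4l, mt-Nd6, Ndufa2 and Pnpt1 to 0.14, -0.33, -0.35, -0.035 and 0.0012 in untreated E4. With the length trend removed there were 5 and 8 in the responses of E3 and E4, 3 and 2 in E4 against E3, and 24 in E3 after myelin against WT. With copies added, mt-Nd3 turned to 0.73 and 0.91 in E3 untreated and after myelin, and to 0.67 and 0.33 in E4.

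Replicate numbers are shared between groups, but deviations of same-numbered libraries correlated at a median of 0.0163 over 20 pairs, with 4 above 0.1, against -0.00952 over 77 pairs of different number. The numbers were therefore not taken as pairs. With a replicate block there were 0 and 29 in the responses of WT and E4, 3 and 2 in E4 against E3, and 5 and 14 in the interactions of E3 and E4 with WT.

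Leaving out each library in turn gave 0 to 1 members in the WT response, 1 to 13 in E3, 4 to 30 in E4, and 0 in Het and KO. It gave 1 to 7 in untreated E4 against E3 and 0 to 10 after myelin. Against WT it gave 75 to 78 in untreated E3, 28 to 61 in E3 after myelin, 67 to 74 in untreated E4, 31 to 41 in E4 after myelin, 16 to 22 in untreated KO, 18 to 31 in KO after myelin and 18 to 27 in untreated Het. The interactions gave 0 to 11 for E3 with WT and 1 to 9 for E4 with WT, both highest without WT myelin replicate 5, and 0 for E4 with E3 and KO with WT.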
